A study of Caenorhabditis elegans with 12 samples.

Results

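The 39 genes described here act in the hermaphrodite germ line of the nematode Caenorhabditis elegans. They serve in the eggshell and egg activation (8 genes), in germline fate and its translational control (9), in oocyte maturation and yolk uptake (3), in maternal control of embryonic cell fate (8), in germ granules (7) and in the particles that store maternal mRNA (4). They were chosen by name, from what they are known to do, and earlier results of these data were known at the time. A gene was measured by a probe set with that gene symbol alone, and where there were several, by the one that was brightest on average across the 12 arrays. All 39 were found among the 17118 genes measured in this way.

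Whole young adult worms were profiled on Affymetrix expression arrays in 4 groups of 3 arrays. The worms were wild-type hermaphrodites, synchronised by hypochlorite treatment, 3 days old, and held for 24 h at 20 °C in k-medium, a salt solution, without food. UV+TiO2 worms were in titanium dioxide and received 4 h of UV and then 20 h without it. UV worms received the same UV with no TiO2, TiO2 worms had TiO2 and no UV, and control worms had neither. During those 4 h the UV-exposed worms were not in the incubator of the other groups, so UV and the place of exposure cannot be told apart. The TiO2 dose is not given in the sources used here. The labels do not state whether the arrays within a group stem from independent cultures, so the p-values here describe sample-to-sample spread that may be technical. In whole worms, fewer cells of a type and less RNA per cell cannot be told apart.

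In a hermaphrodite, germ cells leave a stem cell pool, enter meiosis and grow into oocytes that take up yolk. The oocyte is loaded with mRNAs whose translation is held back by RNA-binding proteins, because late oocytes and the earliest embryo transcribe little. At fertilisation the egg surface is rebuilt into a chitin-containing eggshell, and the stored mRNAs are translated or destroyed in turn. P granules, the germ granules of this worm, are RNA and protein condensates at germ cell nuclei that pass into the germ lineage of the embryo.

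More of these genes were higher than lower in UV worms, by small amounts. In UV worms against control worms, 21 of the 39 rose, 3 fell and 15 did not pass the threshold (limma, Benjamini-Hochberg adjusted p under 0.05 over 22548 probe sets). Over all probe sets, 27.5% were called higher and 23.1% lower in that comparison, 50.6% in all. The median log2 difference was 0.27 over the 39 genes and 0.11 over all probe sets. A single gene, the chitin synthase chs-1, was at least 2-fold higher and none was 2-fold lower; 3.9% of all probe sets were called at least 2-fold higher and 10.1% at least 2-fold lower.

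In UV+TiO2 worms against TiO2 worms, a comparison that shares no array with the first, 27 genes rose, 1 fell and 11 were not called, with a median of 0.34 against 0.15 over all probe sets. There 54.5% of all probe sets were called, 32.3% higher and 22.2% lower, and 2.87% were at least 2-fold higher, as none of the 39 was. In UV+TiO2 worms against control worms, 23 rose and 2 fell, with a median of 0.32 against 0.15, and 54.5% of all probe sets were called, 31.9% higher and 22.6% lower. None of the 39 was 2-fold higher there, against 2.86% of all probe sets. That comparison shares its control arrays with the first. TiO2 without UV, and TiO2 added to UV, each called 0 of the 39.

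The mean log2 level over the 39 genes was 11.71 to 11.74 on the UV+TiO2 arrays, 11.69 to 11.71 on the UV arrays, 11.41 on all 3 TiO2 arrays and 11.36 to 11.48 on the control arrays. The 6 arrays with UV therefore lay above the 6 without, with no overlap. Gene by gene, 22 of the 39 had all 6 arrays with UV above all 6 without, against 22.9% of all probe sets. perm-4 and spn-4 had all 6 below, against 20.5% of all probe sets, and 15 genes overlapped. Between UV and control worms alone, the arrays were all above for 23 genes (31.4% of all probe sets) and all below for 5 (24.7%). Between UV+TiO2 and TiO2 worms the counts were 28 (42.2%) and 3 (25.2%), and between UV+TiO2 and control worms 24 (36.8%) and 3 (24.4%).

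**Figure D1:**
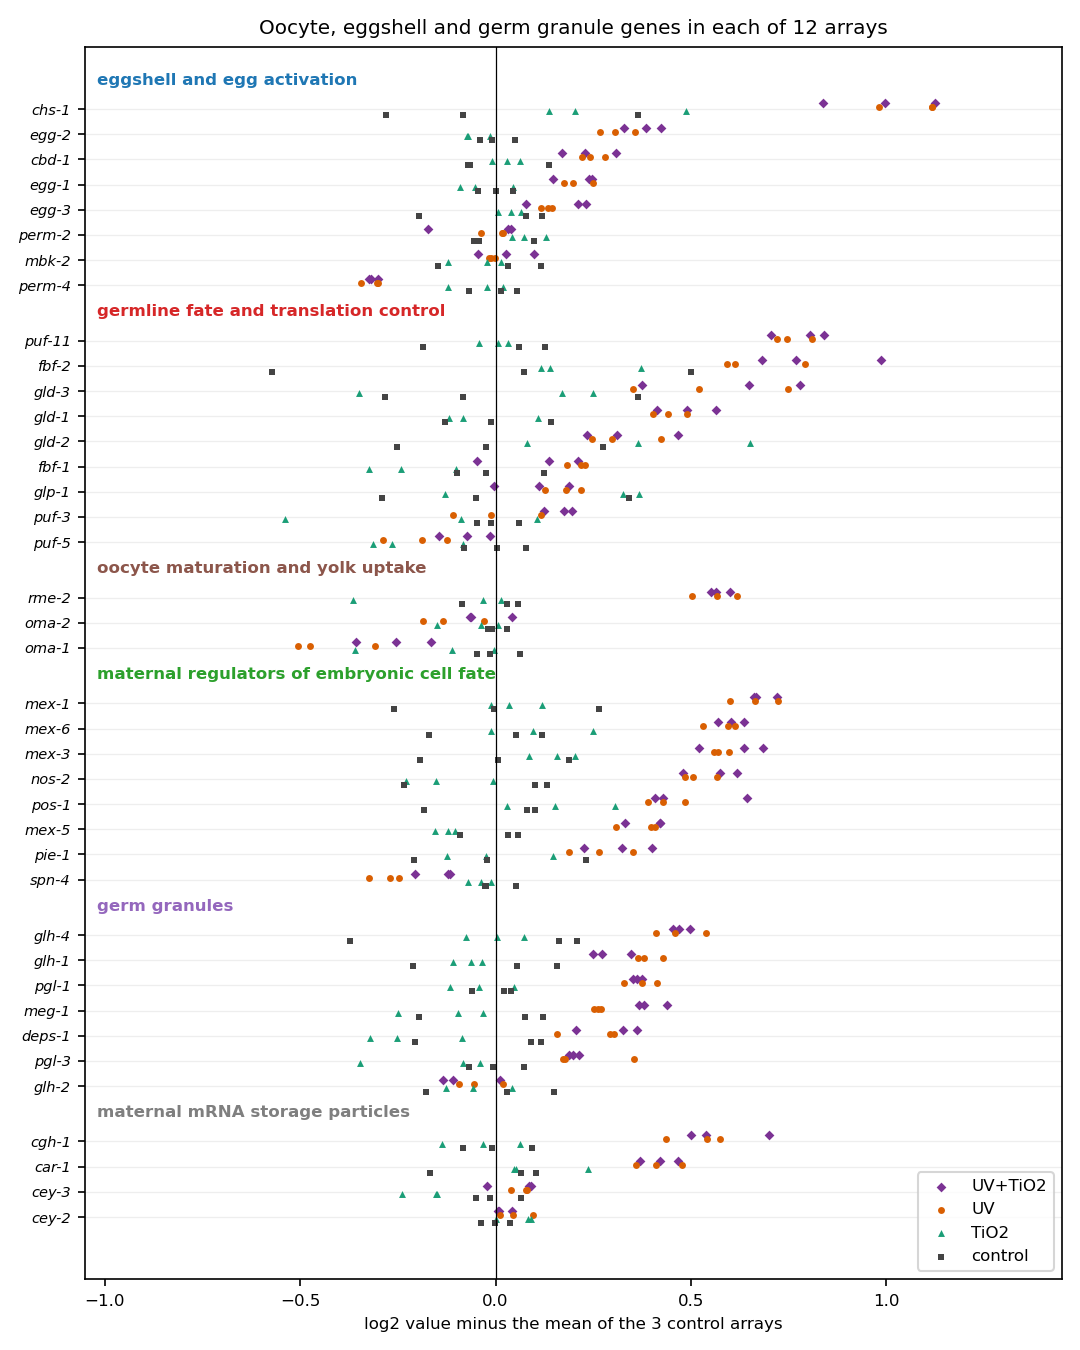
Log2 level of each of the 39 genes on each of the 12 arrays, drawn on the horizontal axis as the difference from the mean of the 3 control arrays, with genes grouped by role and each point an array, coloured by group (UV+TiO2, UV, TiO2, control). The UV+TiO2 and UV points lie right of 0 for most genes, and those of perm-4, oma-1 and spn-4 lie left of it.

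Of the 8 eggshell and egg activation genes, cbd-1, egg-1, egg-2 and chs-1 rose in UV worms and perm-4 fell, with a median of 0.17. Against control worms and against TiO2 worms alike, UV+TiO2 worms had 4 of the 8 higher and 1 lower. Counts by role, here and below, stand beside the shares of all probe sets called. These were 27.5% higher and 23.1% lower in UV worms. For UV+TiO2 worms they were 31.9% and 22.6% against control worms, and 32.3% and 22.2% against TiO2 worms. chs-1 makes the chitin of the eggshell. Its log2 level was 11.45, 11.58 and 11.30 in UV+TiO2 worms, 11.57, 11.57 and 11.44 in UV worms, 10.59, 10.94 and 10.66 in TiO2 worms and 10.82, 10.37 and 10.17 in control worms. All 6 arrays with UV lay above the 6 without, and the control arrays were the most spread. It rose by 1.07 (SE 0.15, adjusted p 7.38e-05) in UV worms against control worms, which is 2.10-fold. Against TiO2 worms, chs-1 rose by 0.71 (SE 0.15, adjusted p 0.00182) in UV+TiO2 worms.

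egg-2 encodes an oocyte surface protein needed for fertilisation. It read 12.36, 12.27 and 12.33 in UV+TiO2 worms, 12.21, 12.25 and 12.30 in UV worms, 11.93, 11.87 and 11.87 in TiO2 worms and 11.99, 11.93 and 11.90 in control worms. The 6 arrays with UV were again all above the others. The difference was 0.31 (SE 0.07, adjusted p 0.00341) in UV worms against control worms and 0.43 (SE 0.07, adjusted p 0.000335) in UV+TiO2 worms against TiO2 worms. Its relative egg-1, a gene with the same role, rose by 0.21 and 0.24 in the same comparisons, and cbd-1, a chitin-binding protein of the egg's outer coat, rose by 0.25 and 0.21. These smaller rises were close to the threshold, at adjusted p 0.0364 and 0.017 for egg-1 and 0.0245 and 0.0488 for cbd-1. The egg-1 call in UV worms was lost without any 1 of 5 arrays (control replicates 2 and 3 and each UV replicate), with an adjusted p of up to 0.105. The cbd-1 call in UV worms was lost without control or UV replicate 1 or 2 (up to 0.0821). Against TiO2 worms, the egg-1 call in UV+TiO2 worms was lost without TiO2 replicate 2 or 3 or UV+TiO2 replicate 1 or 3 (up to 0.0603), and the cbd-1 call without any array but control replicates 1 and 3 (up to 0.152).

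perm-4 encodes a protein of the eggshell's outer layer. It read 13.56, 13.54 and 13.55 in UV+TiO2 worms, 13.52, 13.56 and 13.56 in UV worms, 13.84, 13.74 and 13.88 in TiO2 worms and 13.80, 13.88 and 13.92 in control worms. All 6 arrays with UV lay below the 6 others. perm-4 fell by 0.32 (SE 0.07, adjusted p 0.00342) in UV worms against control worms and by 0.27 (SE 0.07, adjusted p 0.00856) in UV+TiO2 worms against TiO2 worms. With array medians set equal, the difference in UV worms was -0.14 (adjusted p 0.0863, in a range of 5.51e-05 to 0.0863 over its alternatives) and the call ended. The perm-4 call in UV+TiO2 worms against TiO2 worms ended there too, at -0.15 (adjusted p 0.0616). With the probe sets of perm-4 averaged it also ended, at -0.17 (adjusted p 0.0634). Of its 3 other probe sets, those at -0.62 (adjusted p 8.15e-05) and -0.23 (adjusted p 0.0235) were also lower in UV worms and the one at 0.29 (adjusted p 0.048) was higher. perm-2, which acts with perm-4 and is the next protein-coding gene to it on chromosome IV, differed by -0.00 (SE 0.08, adjusted p 0.996) on its chosen probe set, and its other probe set was lower by 0.21 (adjusted p 0.0337).

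mbk-2 encodes a kinase that marks oocyte proteins for destruction at egg activation. It read 11.31, 11.24 and 11.17 in UV+TiO2 worms, 11.21, 11.20 and 11.20 in UV worms, 11.19, 11.09 and 11.23 in TiO2 worms and 11.07, 11.33 and 11.25 in control worms. The groups overlapped throughout, and the difference in UV worms was -0.01 (SE 0.09, adjusted p 0.928). egg-3, which anchors CHS-1 and MBK-2 at the egg cortex, differed by 0.13 (SE 0.09, adjusted p 0.251). A second mbk-2 probe set was higher by 0.40 (adjusted p 0.0304) in UV worms.

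Of the 9 regulators of germline fate, gld-1, gld-3, fbf-2 and puf-11 rose in UV worms and none fell, with a median of 0.32. With TiO2 present, UV+TiO2 worms had 4 higher than control worms and 6 higher than TiO2 worms, with none lower. Of all probe sets, 27.5% were called higher in UV worms, and 31.9% and 32.3% in these comparisons of UV+TiO2 worms. PUF proteins bind the 3′ ends of mRNAs and repress them. puf-11 read 12.32, 12.45 and 12.42 in UV+TiO2 worms, 12.33, 12.42 and 12.36 in UV worms, 11.57, 11.62 and 11.64 in TiO2 worms and 11.67, 11.74 and 11.43 in control worms. The 6 arrays with UV spanned 12.32 to 12.45, clear of all others. It rose by 0.76 (SE 0.09, adjusted p 1.87e-05) in UV worms and by 0.79 (SE 0.09, adjusted p 1.45e-05) in UV+TiO2 worms against TiO2 worms.

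puf-3 is the close relative of puf-11. It read 12.20, 12.12 and 12.18 in UV+TiO2 worms, 11.89, 11.99 and 12.12 in UV worms, 12.11, 11.91 and 11.46 in TiO2 worms and 11.95, 11.99 and 12.06 in control worms. Its groups overlapped in UV and control worms, and the difference was -0.00 (SE 0.13, adjusted p 0.995). The increase of 0.34 (SE 0.13, adjusted p 0.0488) in UV+TiO2 worms against TiO2 worms passed the threshold narrowly, with the TiO2 arrays spread from 11.46 to 12.11. Leaving out any 1 of 10 arrays ended that call (adjusted p up to 0.212), and without TiO2 replicate 3 the difference was 0.16. These arrays were TiO2 replicates 2 and 3, control replicates 2 and 3, and every UV and UV+TiO2 replicate.

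puf-5 acts in late oocytes. It read 12.83, 12.76 and 12.89 in UV+TiO2 worms, 12.62, 12.72 and 12.78 in UV worms, 12.82, 12.64 and 12.59 in TiO2 worms and 12.82, 12.91 and 12.99 in control worms. UV arrays lay below control arrays without overlap, yet the difference of -0.20 (SE 0.09, adjusted p 0.0795) did not pass. In UV+TiO2 worms puf-5 differed by -0.08 from control worms and by 0.14 from TiO2 worms, neither called.

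fbf-2 encodes a PUF protein that keeps germline stem cells and represses gld-1. It read 10.12, 10.42 and 10.20 in UV+TiO2 worms, 10.23, 10.05 and 10.03 in UV worms, 9.81, 9.55 and 9.57 in TiO2 worms and 9.51, 9.93 and 8.86 in control worms. Control arrays ran from 8.86 to 9.93, the widest spread of any of the 39 genes (SD 0.54), and all 6 arrays with UV were above them. It rose by 0.67 (SE 0.21, adjusted p 0.0164) in UV worms, a call that ended without UV replicate 1 (adjusted p 0.0564, in a range of 0.00106 to 0.0655 over its alternatives). Without control replicate 3 the difference was 0.38. With array weights it was 0.33, and the call ended there and with only the 6 arrays compared. It rose by 0.60 (SE 0.21, adjusted p 0.0257) in UV+TiO2 worms against TiO2 worms, lost without TiO2 or UV+TiO2 replicate 2 or 3 (up to 0.0891). fbf-1 differed by 0.21 (SE 0.10, adjusted p 0.0866) in UV worms, short of the threshold, and rose by 0.32 (SE 0.10, adjusted p 0.0138) in UV+TiO2 worms against TiO2 worms, which was lost without TiO2 replicate 3 or UV+TiO2 replicate 1 (up to 0.0625). Against control worms, fbf-1 was not called in UV+TiO2 worms (adjusted p 0.386), and it differed by -0.22 in TiO2 worms, also not called. A single protein-coding gene lies between fbf-1 and fbf-2 on chromosome II.

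gld-1, a translational repressor that commits germ cells to meiosis, rose by 0.45 (SE 0.09, adjusted p 0.00176) in UV worms and by 0.52 (SE 0.09, adjusted p 0.000602) in UV+TiO2 worms against TiO2 worms. Its other probe set differed by -0.20 (adjusted p 0.225) in UV worms. gld-2 encodes a cytoplasmic poly(A) polymerase that activates stored mRNAs, and gld-3 its partner. gld-3 rose by 0.54 (SE 0.19, adjusted p 0.0326) in UV worms, and 1 of its other probe sets was higher by 1.27 (adjusted p 1.78e-05). The gld-3 call was lost without control replicate 2 or 3 or UV replicate 1 or 2 (up to 0.116). gld-2 differed by 0.32 (SE 0.15, adjusted p 0.095) on its chosen probe set, while 3 of its 4 other probe sets were called higher in UV worms. glp-1, the Notch receptor of germline stem cells, differed by 0.17 (SE 0.16, adjusted p 0.372).

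The oocyte genes went in different directions. rme-2 encodes the receptor by which oocytes take up yolk. It read 12.69, 12.74 and 12.70 in UV+TiO2 worms, 12.64, 12.70 and 12.75 in UV worms, 12.15, 12.10 and 11.77 in TiO2 worms and 12.16, 12.19 and 12.05 in control worms. The 6 arrays with UV, at 12.64 to 12.75, were all above the others. rme-2 rose by 0.56 (SE 0.10, adjusted p 0.000509) in UV worms and by 0.70 (SE 0.10, adjusted p 9.41e-05) in UV+TiO2 worms against TiO2 worms.

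oma-1 and oma-2 encode zinc-finger proteins that together allow the oocyte to mature and hold maternal mRNAs silent until fertilisation. oma-1 read 11.33, 11.23 and 11.42 in UV+TiO2 worms, 11.11, 11.08 and 11.28 in UV worms, 11.58, 11.47 and 11.22 in TiO2 worms and 11.57, 11.65 and 11.53 in control worms. The UV arrays had the lowest mean and did not overlap the control arrays, and the UV+TiO2 arrays overlapped the TiO2 arrays. It fell by 0.43 (SE 0.10, adjusted p 0.00391) in UV worms, and this fall remained past the threshold in all 22 alternatives tried. It fell by 0.26 (SE 0.10, adjusted p 0.0493) in UV+TiO2 worms against control worms, a call that ended when any 1 of 9 arrays was left out (all but UV replicate 3 and TiO2 replicates 1 and 3, adjusted p up to 0.156). The difference from TiO2 worms was -0.10 (SE 0.10, adjusted p 0.413). Whether the UV difference of oma-1 was another with TiO2 present was tested as an interaction, which was 0.33 with an adjusted p of 0.955 (unadjusted 0.0433).

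oma-2 read 12.53, 12.42 and 12.43 in UV+TiO2 worms, 12.30, 12.35 and 12.46 in UV worms, 12.49, 12.45 and 12.34 in TiO2 worms and 12.48, 12.52 and 12.47 in control worms. The UV+TiO2 arrays overlapped the TiO2 and the control arrays. UV arrays lay below control arrays without overlap, yet the oma-2 difference of -0.12 (SE 0.08, adjusted p 0.242) did not pass. Its second probe set gave the opposite sign and was called, at 0.68 (adjusted p 0.000547) in UV worms and 1.02 (adjusted p 2.09e-05) in UV+TiO2 worms against TiO2 worms. With the probe sets of a gene averaged, oma-2 was 0.28 higher in UV worms (adjusted p 0.0114, in a range of 0.0114 to 0.513 over its alternatives).

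On the chosen probe sets, the genes that set cell fates in the early embryo had the highest median of the 6 roles in UV worms. Of 8, 6 rose and 1 fell, with a median of 0.48. Several of these values depended on the probe set. With the probe sets of a gene averaged, pos-1 differed by 0.09, mex-5 by 0.07, mex-6 by 0.27 and spn-4 by 0.25 in UV worms. The roles were not ranked under that setting. For UV+TiO2 worms 7 were higher and none lower, both against control worms and against TiO2 worms. Of all probe sets, 27.5% were called higher in UV worms, and 31.9% and 32.3% in these comparisons of UV+TiO2 worms. mex-1 encodes a zinc-finger protein that keeps somatic founder cells from muscle fates. It read 11.43, 11.49 and 11.44 in UV+TiO2 worms, 11.37, 11.43 and 11.49 in UV worms, 10.89, 10.76 and 10.80 in TiO2 worms and 10.51, 11.03 and 10.77 in control worms. The arrays with UV spanned 11.37 to 11.49, above all arrays without UV. The rise was 0.66 (SE 0.11, adjusted p 0.00036) in UV worms and 0.64 (SE 0.11, adjusted p 0.000521) in UV+TiO2 worms against TiO2 worms.

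mex-6 and mex-5 encode related zinc-finger proteins that polarise the newly fertilised embryo. mex-6 read 11.36, 11.39 and 11.32 in UV+TiO2 worms, 11.37, 11.29 and 11.35 in UV worms, 10.85, 10.74 and 11.004 in TiO2 worms and 10.87, 10.81 and 10.59 in control worms. All 6 arrays with UV lay above the rest, and the rise was 0.58 (SE 0.10, adjusted p 0.000263) in UV worms, although a second probe set differed by -0.03 (adjusted p 0.855). mex-5 rose by 0.37 (SE 0.08, adjusted p 0.00142), although its second probe set differed by -0.23 (adjusted p 0.139). mex-3, a KH-domain repressor, rose by 0.58 (SE 0.10, adjusted p 0.000342), and nos-2, a Nanos family gene of the primordial germ cells, rose by 0.52 (SE 0.11, adjusted p 0.00124). pos-1, a zinc-finger protein that represses glp-1 in the embryo, rose by 0.43 (SE 0.11, adjusted p 0.00449). The second pos-1 probe set was called lower, at -0.26 (adjusted p 0.0149).

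pie-1 encodes the protein that holds transcription off in embryonic germ cells. It read 10.66, 10.57 and 10.74 in UV+TiO2 worms, 10.53, 10.61 and 10.69 in UV worms, 10.49, 10.32 and 10.22 in TiO2 worms and 10.13, 10.57 and 10.32 in control worms. UV and control arrays overlapped, and the difference of 0.27 (SE 0.12, adjusted p 0.0698) did not pass. In UV+TiO2 worms pie-1 was higher than in TiO2 worms by 0.32 (SE 0.12, adjusted p 0.0342), a call lost without TiO2 replicate 2 or 3 or UV+TiO2 replicate 1 or 3 (up to 0.121).

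spn-4 encodes an RNA-binding protein that acts with pos-1 in the early embryo. It read 12.71, 12.63 and 12.72 in UV+TiO2 worms, 12.51, 12.56 and 12.59 in UV worms, 12.80, 12.76 and 12.82 in TiO2 worms and 12.81, 12.89 and 12.81 in control worms. Every array with UV was below every array without. spn-4 fell by 0.28 (SE 0.07, adjusted p 0.0062) in UV worms, and differed by -0.11 (SE 0.07, adjusted p 0.219) in UV+TiO2 worms against TiO2 worms. Its second probe set rose, by 0.79 (adjusted p 0.000236) in UV worms. The fall of the chosen probe set ended once array medians were set equal, where UV worms differed by -0.10 (adjusted p 0.191, in a range of 0.000404 to 0.191 over its alternatives).

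Germ granule genes rose in 4 of 7 cases in UV worms and none fell, with a median of 0.26. UV+TiO2 worms had 5 higher than control worms and 6 higher than TiO2 worms, with none lower. Of all probe sets, 27.5% were called higher in UV worms, and 31.9% and 32.3% in these comparisons of UV+TiO2 worms. glh-1, glh-2 and glh-4 encode helicases related to Vasa. glh-4 read 9.41, 9.39 and 9.44 in UV+TiO2 worms, 9.35, 9.40 and 9.48 in UV worms, 9.01, 8.86 and 8.94 in TiO2 worms and 9.10, 9.15 and 8.57 in control worms. Its arrays with UV lay above every array without. It rose by 0.47 (SE 0.13, adjusted p 0.00917) in UV worms and by 0.47 (SE 0.13, adjusted p 0.00882) in UV+TiO2 worms against TiO2 worms. Without control replicate 3, the lowest array, the difference in UV worms was 0.28 and still called.

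glh-1 read 11.77, 11.68 and 11.70 in UV+TiO2 worms, 11.81, 11.86 and 11.79 in UV worms, 11.32, 11.39 and 11.36 in TiO2 worms and 11.59, 11.48 and 11.22 in control worms. Arrays with UV were again all above the rest, and the rise in UV worms was 0.39 (SE 0.09, adjusted p 0.00415). Its other probe set differed by 0.03 (adjusted p 0.783). glh-2 read 9.56, 9.53 and 9.68 in UV+TiO2 worms, 9.57, 9.61 and 9.69 in UV worms, 9.54, 9.61 and 9.71 in TiO2 worms and 9.82, 9.70 and 9.49 in control worms. Its arrays overlapped across groups, and UV worms differed by -0.04 (SE 0.10, adjusted p 0.726). The log2 difference between glh-1 and glh-2 within an array was on average 0.41 larger on the 6 arrays with UV than on the 6 without, and the values of these sets did not overlap. For egg-2 minus egg-1 the values did not overlap either, at 0.15, and for the other pairs of related genes compared they did. Among those overlapping pairs the averages ran from -0.22 for oma-1 minus oma-2 to 0.60 for puf-11 minus puf-3. No share over all probe sets was set beside these pairs, and the differences were not tested.

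pgl-1 and pgl-3 encode the scaffold proteins of P granules. pgl-3 read 10.17, 10.18 and 10.20 in UV+TiO2 worms, 10.16, 10.16 and 10.34 in UV worms, 9.64, 9.94 and 9.90 in TiO2 worms and 10.06, 9.98 and 9.92 in control worms. The UV arrays were above the control arrays, the lowest at 10.16 against a highest control array of 10.06. The difference was 0.24 (SE 0.10, adjusted p 0.0575) in UV worms, short of the threshold, and the rise in UV+TiO2 worms against TiO2 worms was 0.36 (SE 0.10, adjusted p 0.00791). pgl-1 rose by 0.37 (SE 0.08, adjusted p 0.00127) in UV worms. meg-1, which partitions P granules in the embryo, rose by 0.26 (SE 0.10, adjusted p 0.0374), a call lost without control replicate 1, any UV replicate or UV+TiO2 replicate 1 or 2 (up to 0.151), with a difference of 0.16 without control replicate 1. deps-1, a P granule assembly gene, differed by 0.25 (SE 0.10, adjusted p 0.0626) in UV worms and rose by 0.52 (SE 0.10, adjusted p 0.00127) in UV+TiO2 worms against TiO2 worms.

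Of the 4 storage particle genes, cgh-1 and car-1 rose in UV worms and the Y-box genes cey-2 and cey-3 were not called, with a median of 0.24. UV+TiO2 worms had 2 higher than control worms and 3 higher than TiO2 worms. Of all probe sets, 27.5% were called higher in UV worms, and 31.9% and 32.3% in these comparisons of UV+TiO2 worms. cgh-1 encodes a DDX6-type helicase. It read 12.59, 12.78 and 12.62 in UV+TiO2 worms, 12.66, 12.63 and 12.52 in UV worms, 11.95, 12.05 and 12.15 in TiO2 worms and 12.001, 12.18 and 12.08 in control worms. Every array with UV was above all others. It rose by 0.52 (SE 0.09, adjusted p 0.000427) in UV worms and by 0.62 (SE 0.09, adjusted p 0.000112) in UV+TiO2 worms against TiO2 worms. A second cgh-1 probe set was called lower in UV worms, at -0.69 (adjusted p 0.00173).

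car-1, which binds CGH-1 in the same particles, read 12.82, 12.87 and 12.92 in UV+TiO2 worms, 12.86, 12.81 and 12.93 in UV worms, 12.69, 12.50 and 12.50 in TiO2 worms and 12.28, 12.55 and 12.52 in control worms. Arrays with UV lay above all arrays without. It rose by 0.42 (SE 0.09, adjusted p 0.00251) in UV worms. Its other probe sets were 0.70 (adjusted p 0.00411) and -0.21 (adjusted p 0.122).

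cey-2 and cey-3 encode Y-box proteins that bind mRNA in germ cells, and they lie near each other on chromosome I. cey-2 read 13.73, 13.73 and 13.76 in UV+TiO2 worms, 13.73, 13.76 and 13.81 in UV worms, 13.81, 13.72 and 13.80 in TiO2 worms and 13.72, 13.76 and 13.68 in control worms. Its arrays overlapped throughout, and UV worms differed by 0.05 (SE 0.07, adjusted p 0.582). cey-3 read 13.18, 13.17 and 13.06 in UV+TiO2 worms, 13.17, 13.16 and 13.13 in UV worms, 12.94, 12.93 and 12.85 in TiO2 worms and 13.07, 13.04 and 13.15 in control worms. The TiO2 arrays were the lowest, and TiO2 worms differed from control worms by -0.18, which was not called. Nor was cey-3 called in UV+TiO2 worms against control worms (adjusted p 0.572). UV worms differed from control worms by 0.07 (SE 0.08, adjusted p 0.481), and UV+TiO2 worms were higher than TiO2 worms by 0.23 (SE 0.08, adjusted p 0.0206), a call lost without TiO2 replicate 3 or UV+TiO2 replicate 1 or 2 (up to 0.0715).

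In UV+TiO2 worms against control worms, chs-1 rose by 0.99 (SE 0.15, adjusted p 0.000156), fbf-2 by 0.81 (SE 0.21, adjusted p 0.00546) and puf-11 by 0.78 (SE 0.09, adjusted p 1.49e-05), the 3 largest rises there. mex-1 rose by 0.68 (SE 0.11, adjusted p 0.000301), cgh-1 by 0.58 (SE 0.09, adjusted p 0.000185) and rme-2 by 0.57 (SE 0.10, adjusted p 0.000477). Without control replicate 3 the fbf-2 difference was 0.53. perm-4 fell by 0.31 (SE 0.07, adjusted p 0.00375), a call that ended with its probe sets averaged (adjusted p 0.0662). The spn-4 difference there was -0.15 (SE 0.07, adjusted p 0.101), and pie-1 was higher by 0.32 (SE 0.12, adjusted p 0.0347), a call lost without control or UV+TiO2 replicate 1 or 3 (up to 0.137).

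Differences between worms with and without UV were compared with and without TiO2 present, in the pair of comparisons that share no array. Of the 39 genes, 21 were called higher in both, against 22.2% of all probe sets, and perm-4 alone was called lower in both, against 20.2%. None was called in opposite directions and 9 were called in neither. With array medians set equal, neither of the perm-4 calls passed. A further 6 (fbf-1, puf-3, pie-1, pgl-3, deps-1 and cey-3) were called higher only where TiO2 was present, and oma-1 and spn-4 were called lower only where it was absent. The interaction test called 0 of 39 genes and 0% of all probe sets, so none of these 8 was shown to respond differently. At an unadjusted p under 0.05 it picked out puf-5 (0.34, adjusted p 0.901) and oma-1. The sign was the same in 32 of 39, and Pearson's r between the differences was 0.85 over the 39 genes, given as a description. Of the 6 called higher only with TiO2 present, pie-1 and deps-1 were also called higher in UV+TiO2 worms against control worms. There fbf-1, puf-3, pgl-3 and cey-3 were not called (adjusted p 0.386, 0.308, 0.0942 and 0.572).

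**Figure D2:**
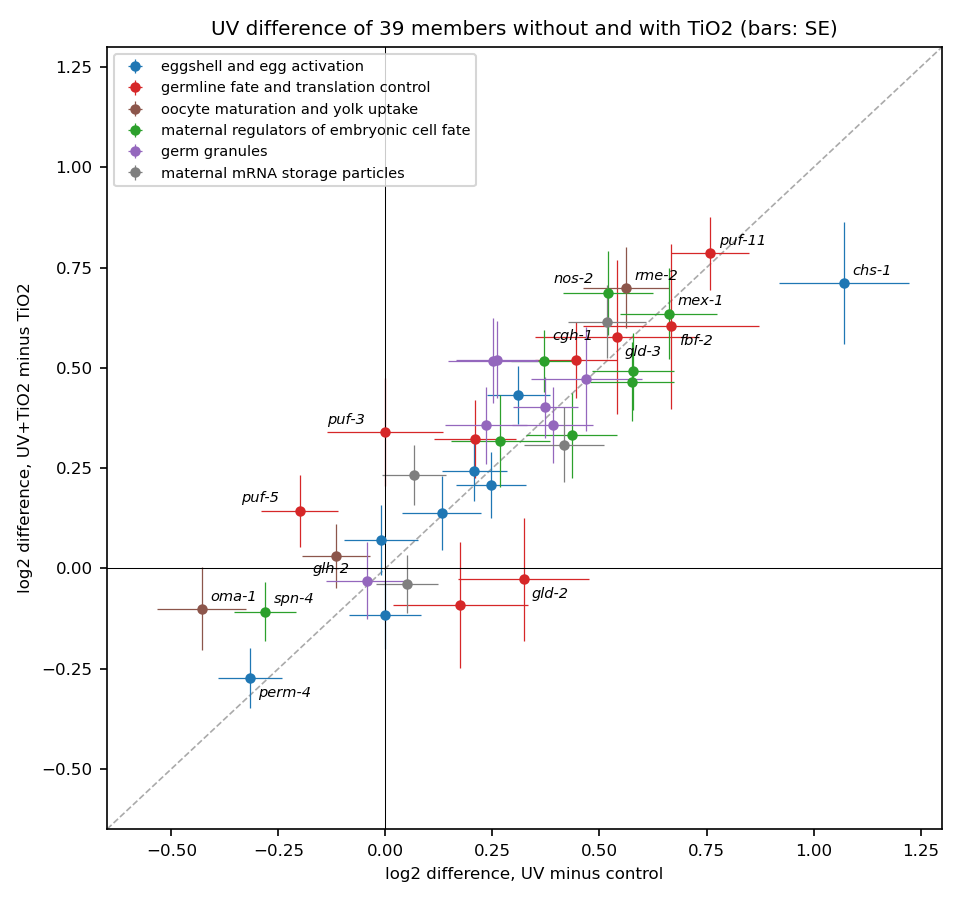
Log2 difference of each of the 39 genes in UV+TiO2 worms against TiO2 worms (vertical axis) and in UV worms against control worms (horizontal axis), with standard errors and coloured by role; the dashed line marks equal differences. Most genes lie above 0 on both axes, chs-1 is farthest along the horizontal axis at 1.07, and perm-4 is below 0 on both.

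TiO2 without UV called 0 of the 39, against 0.00443% of all probe sets. Differences ran from -0.22 to 0.37 with a median of -0.04, and 95% intervals reached from -0.47 to 0.70 over the genes. At an unadjusted p under 0.05, 4 genes stood out: gld-2 at 0.37, and fbf-1, puf-5 and cey-3 at -0.22, -0.22 and -0.18, all with an adjusted p of 1. The 3 TiO2 arrays lay below the 3 control arrays for 4 genes (3.15% of all probe sets) and above them for 0 (2.72%). TiO2 added to UV also called 0, against 0.0887% of all probe sets, and 0 had an unadjusted p under 0.05. There the differences ran from -0.11 to 0.17, the lowest adjusted p was 0.853, and intervals reached from -0.42 to 0.59. The UV+TiO2 arrays lay above the UV arrays for 3 genes (9.85% of all probe sets) and below for 1 (8.27%). These bounds are the extremes over the 39 genes, and the median interval reached 0.21 to each side in both comparisons.

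**Figure D3:**
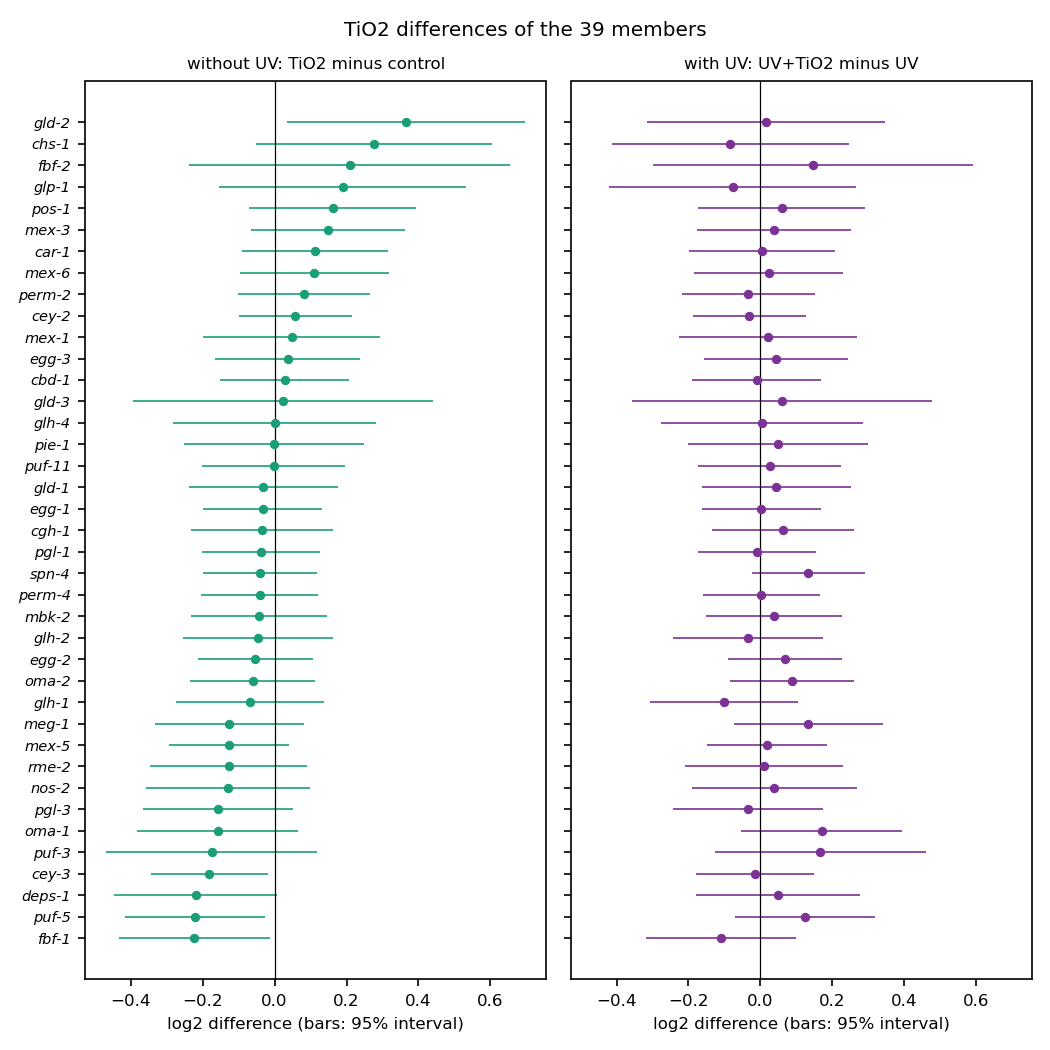
Log2 difference of each of the 39 genes with its 95% interval, for TiO2 worms minus control worms (left) and UV+TiO2 worms minus UV worms (right). The differences lie between -0.22 and 0.37 without UV and between -0.11 and 0.17 with it.

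More than 1 probe set was available for 18 of the 39 genes, 27 further probe sets in all. In UV worms 14 of these were called higher, 5 lower and 8 neither. In 8 of the 18 genes all probe sets had the same sign, and in 4 (perm-4, pos-1, spn-4 and cgh-1) probe sets were called in opposite directions. In UV+TiO2 worms against TiO2 worms only perm-4 had opposite calls. Among the chosen probe sets of the 39 genes, 18 carry an array design suffix for probes shared by several transcripts (_s_at). A further 2, those of perm-4 and mex-5, carry the suffix _x_at. Binding of these probe sets to transcripts of other genes was not tested. Which parts of a transcript each probe set covers is not analysed here. With the probe sets of a gene averaged, the rises of gld-1, pos-1, mex-5, glh-1 and cgh-1 in UV worms no longer passed.

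**Figure D4:**
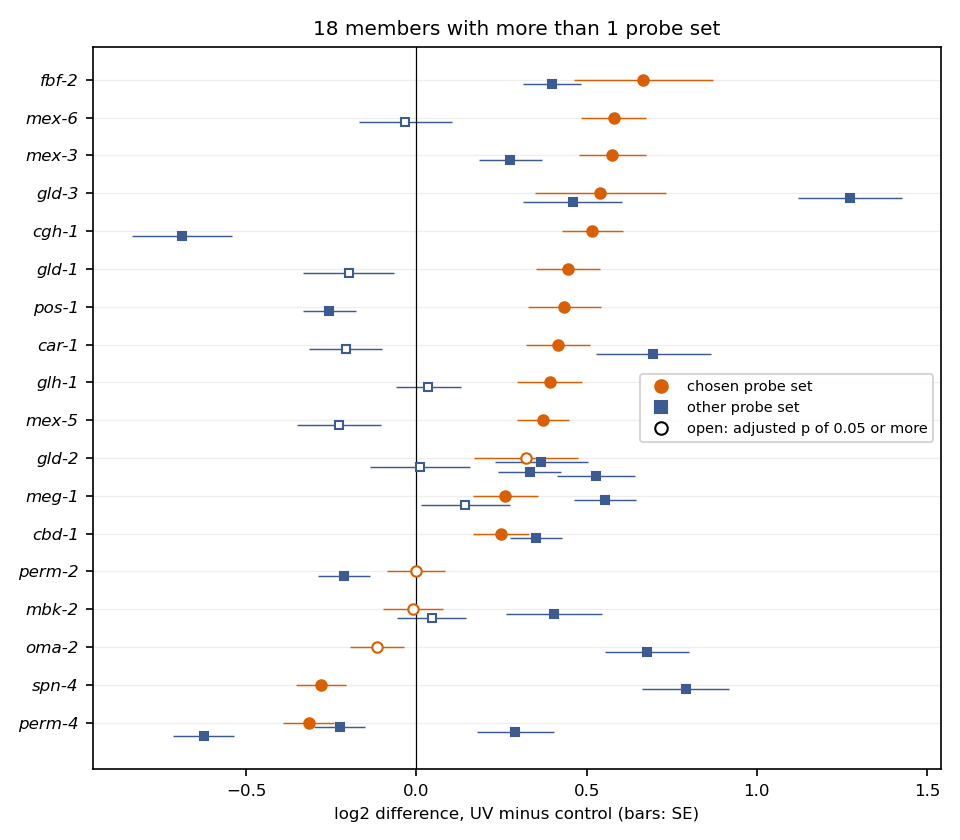
Log2 difference in UV worms against control worms for every probe set of the 18 genes with more than 1, with standard errors. Circles mark the chosen probe sets, squares the others, and open symbols an adjusted p of 0.05 or more. Probe sets of perm-4, pos-1, spn-4 and cgh-1 lie on both sides of 0.

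Other genes of the same pathways are given by their counts. These lists were put together from known function, with earlier results of these data known. Of 45 listed 40 were measured, of which 25 rose and 0 fell in UV worms, and 29 rose and 0 fell in UV+TiO2 worms against TiO2 worms. Over all probe sets, 27.5% were called higher and 23.1% lower in UV worms, and 32.3% higher and 22.2% lower in UV+TiO2 worms against TiO2 worms. Other eggshell genes rose in 6 of 10 cases in UV worms, with a median of 0.32. Among them memi-2, a regulator of the second meiotic division in the oocyte, rose by 0.68 (adjusted p 0.000151) and gna-2, which makes the precursor of chitin, by 0.64 (adjusted p 0.00358). Of the eggshell proteoglycan genes, cpg-2 rose by 0.24 (adjusted p 0.0128) and cpg-1 differed by 0.03 (adjusted p 0.76).

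Other germline RNA regulators rose in 9 of 18 cases, with a median of 0.30. fog-2, which permits sperm formation in hermaphrodites, rose by 0.80 (adjusted p 0.000113) and sygl-1, a stem cell gene under GLP-1 Notch signalling, by 0.69 (adjusted p 0.000805). rnp-8, a partner of GLD-2, and lst-1, which acts beside sygl-1, differed by -0.23 (adjusted p 0.154) and -0.13 (adjusted p 0.169). Other germ granule genes rose in 10 of 12 cases, with a median of 0.55. pgl-2 rose by 1.19 (adjusted p 0.00226) and mip-2, a LOTUS domain gene, by 1.03 (adjusted p 3.17e-06). The Argonaute genes csr-1 and prg-1 differed by -0.14 (adjusted p 0.256) and 0.07 (adjusted p 0.556).

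Markers of other cells are read against the same 27.5% of all probe sets called higher and 23.1% called lower in UV worms. In UV worms, sperm markers rose in 8 of the 11 measured of 16 listed (median 0.41) and meiotic germ cell markers in 8 of 13 (median 0.64), with none lower in either list. The sperm markers were dim, with a mean log2 level of 5.75 to 6.15 on the control arrays, whose array medians were 6.545 to 6.63. Of the 8 somatic gonad markers measured, 1 was called higher and 4 lower. The share called lower was larger than over all probe sets, and the share called higher was smaller. Their median was -0.20, against 0.11 over all probe sets. Of the 9 early zygotic embryo markers measured, 2 were called higher and 2 lower, shares near those of all probe sets. Adult soma markers rose in 2 of 6 and fell in 3, with a median of -0.19. Both rises were at least 2-fold, the larger at 3.38, and the lowest difference was -0.64. Their mean log2 level was 12.91 to 13.05 on the UV arrays and 12.43 to 12.54 on the control arrays. Late embryo and larval markers fell in 8 of 9 cases with a median of -3.26. Their mean log2 level was 6.73 to 6.93 on the UV+TiO2 arrays, 6.60 to 6.72 on the UV arrays, 9.89 to 9.97 on the TiO2 arrays and 9.66 to 9.87 on the control arrays. The part of these cells in the values of the 39 genes was not tested.

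**Figure D5:**
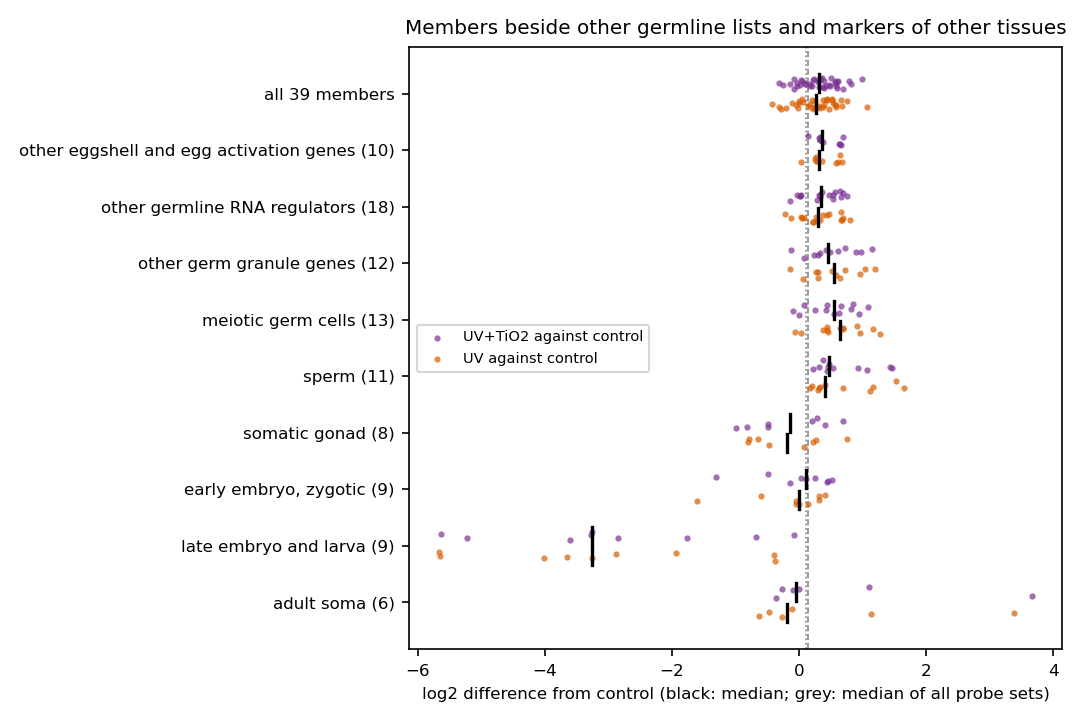
Log2 difference from control worms of every gene in UV+TiO2 worms and in UV worms, for the 39 genes together, the other pathway lists and the marker lists. Each point is a gene, black bars are list medians and grey lines the medians of all probe sets. The late embryo and larval markers stand far below 0, at a median of -3.26, and the germ line lists lie mostly above it.

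The direction of small changes depended on scale. The array medians ran from 6.36 to 6.63, and centring each array on its median moved the median difference of all probe sets in UV worms up by 0.18. With that scaling 12231 probe sets were called higher and 4175 lower, against 6198 higher and 5216 lower as deposited. Of the 39 genes, 29 then rose and 1 fell in UV worms. The falls of perm-4 and spn-4 in UV worms did not pass under it, and that of oma-1 did, at -0.25 (adjusted p 0.0363, in a range of 0.000162 to 0.0363 over its alternatives).

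Replicates were tight within the UV groups. The median SD over the 39 genes was 0.07 in UV+TiO2 worms, 0.05 in UV worms, 0.10 in TiO2 worms and 0.14 in control worms. Control replicate 3 was the lowest of the controls for 21 genes, replicate 1 for 16 and replicate 2 for 2. Over the 4 groups, the F-test called 29 of the 39 genes, against 55.5% of all probe sets.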

How the data were processed

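RNA from 12 samples of whole worms (300 ng each) was labelled with biotin and hybridised to Affymetrix arrays, per the labels' protocols. The deposited values are log2 expression values made by the authors with RMA in Affymetrix Expression Console, per the submitters' processing notes; versions and genome build are not given in the sources used here. The quantile step of RMA forces arrays to similar distributions, so a general loss of RNA in a group would not show. The number of arrays, not a read depth, limits precision.

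Of 22625 probe sets, 77 controls were left out. A single gene was named for 20766 probe sets in the array annotation, while 887 had more than 1 name and 895 had no name. limma 3.58.1 in R 4.3.3 fitted the 4 group means to all 12 arrays without a block, with Benjamini-Hochberg adjustment over 22548 probe sets and a threshold of 0.05. The script was tested on simulated data in which few probe sets changed. For TiO2 worms against control worms it recovered 54% of 1.5-fold and 95% of 2-fold changes, so smaller changes can go uncalled. The genes and lists were chosen with earlier results of these data known. Array values are printed for, in each role, the 2 genes with the largest and the 2 with the smallest difference in UV worms (all genes of roles with 4 or fewer). In the pathway lists the 2 largest and 2 smallest are named. Other probe sets are given where their call or sign differs. Levels of different probe sets are not comparable. Alternatives covered replicate omission, the replicate block, filtering, scaling, weighting and the choice of probe set.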

Additional observations from a re-analysis of the deposited data

How the results depend on the processing

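Each count was recomputed without each of the 12 arrays and under 10 other settings (9 for the interaction and the F-test). Without single arrays, genes called higher numbered 16 to 22 in UV worms against control worms, 18 to 24 in UV+TiO2 worms against control worms and 19 to 27 against TiO2 worms. Genes called lower numbered 3, 1 to 2 and 1 in the same order, the F-test called 24 to 30, and the TiO2 comparisons and the interaction called 0 throughout. Under the other settings the genes called higher numbered 17 to 29, 18 to 28 and 24 to 29, those called lower 1 to 4, 1 to 3 and 0 to 2, and the F-test called 26 to 33. The count of lower genes in UV+TiO2 worms against control worms, 2 as deposited, was 1 with the replicate block, 1 without the dimmest 30% of probe sets, 1 with each array centred on its median, 1 with the mean of all probe sets and 1 with only the 6 arrays compared, but 3 with array weights and 3 with a robust prior variance that follows the level. In UV worms it was 4 under the last 2 of these settings and 4 with array SD as a covariate, against 3 as deposited. Centring left 1 lower gene in UV worms against control worms and 0 in UV+TiO2 worms against TiO2 worms, where the mean of all probe sets also left 0 and a further quantile normalization gave 2. The cause of these moves was not tested. The mean of all probe sets changed the sign of oma-2 (0.28 in UV worms and 0.42 in UV+TiO2 worms against control worms), spn-4 (0.25, 0.39 and, against TiO2 worms, 0.32) and cgh-1 (-0.086 in UV worms). Only spn-4 in UV worms went from a called fall to a called rise (adjusted p 0.0267). oma-2 had not been called as deposited, and cgh-1 in UV worms was no longer called (adjusted p 0.419). Calls kept under all 22 alternatives were 11 of 21 rises and 1 of 3 falls in UV worms, 13 of 23 and 0 of 2 in UV+TiO2 worms against control worms, and 16 of 27 and 0 of 1 against TiO2 worms. Replicate numbers were not taken as pairs: the labels give them no shared source, and correlations of same-numbered deviations from the group means ran from -0.71 to 0.50 over all pairs of groups. Between UV and control worms they were 0.50, 0.085 and 0.47, and each of the 3 was closest to its own number, a hint from the data and not from the design. Between TiO2 and control worms all 3 were below 0. With the replicate block, UV worms had 21 higher and 3 lower genes, UV+TiO2 worms 22 and 1 against control worms and 24 and 1 against TiO2 worms, and the F-test called 26. The median standard error of a difference over all probe sets was 0.12 with 3 arrays a group.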
